A study of Mus musculus with 20 samples.

Results

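The sex difference of the 4-month mouse kidney was measured over autosomal genes, the genes outside the X and Y chromosomes. Kidney samples of female (XX) and male (XY) mice, 5 per sex, all wild type and of the C57BL/6J background, were collected at 4 months of age from fed animals. They were compared by sequencing of total RNA, with 1 library per sample. A gene was included if it lay on 1 of the 19 autosomes and had a count above 10 in at least 5 of the 10 libraries, which left 19815 of the 47415 autosomal genes among the 51826 genes of the count tables. The series holds 20 libraries, and the other 10 came from female and male mice, 5 samples per sex, of the same genotype and feeding at 25 months by the labels. By the labels the groups differed in sex and age, and the effects of sex chromosomes and of sex hormones cannot be told apart. RNA was taken from whole kidney, in which fewer cells of a type and less RNA per cell cannot be told apart.

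The kidney is one of the most sexually dimorphic organs of the mouse outside the reproductive tract. Most of the dimorphism is known from the proximal tubule, the first segment after the glomerulus, which takes back filtered sugars, amino acids and phosphate and secretes organic anions and drugs into the urine. Testosterone is known to enlarge its cells and to raise a set of genes in the male. Prolactin and growth hormone act through receptors that signal by STAT5, a second known route of sex-dependent expression in liver and kidney.

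The 10 libraries held 58144052 to 80661256 counts. Mitochondrial genes took 33.1% to 43.5% of them, with a mean of 37.6% in females and 41.3% in males, and autosomal genes 55.2% to 65.1%. Xist, which is transcribed from the inactive X chromosome, reached 669.7 CPM (counts per 1e6 counts, with library sizes scaled by edgeR's TMM factors) or more in every female and at most 0.236 CPM in males, and no library contradicted its recorded sex. The first principal component of autosomal genes held 40.1% of the variance, with all females on one side of 0 and all males on the other. The running number in the deposited library names, whose meaning is not stated, was above 40 for females 4 and 5 and for no male. The same females had 918 and 937 CPM of Neat1, a nuclear long non-coding RNA, against 162 to 362 CPM in the other 8 libraries. Leading counts are therefore also given for the 8 libraries numbered up to 40, a choice made after seeing the data, and the part of the library numbers in the results was not tested.

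Of the 19815 autosomal genes, 4153 differed between the sexes at an adjusted p under 0.05, or 21% of those tested (edgeR's quasi-likelihood test, Benjamini-Hochberg adjustment over all genes tested, two-sided). Of these, 2194 were higher in females (11.1%) and 1959 were lower (9.89%). Most differences were moderate, with a median log2 difference of 0.68 among the genes higher in females and -0.55 among those lower, beside 0.048 over all genes tested. At least a 2-fold difference was reached by 957 genes, 543 higher and 414 lower in females. At least an 8-fold difference was reached by 48 higher and 68 lower genes. All 5 females lay above or below all 5 males in 1443 of the genes called higher and 1494 of those called lower, where 8.02% and 8.06% of all genes tested were separated in these directions. Without females 4 and 5 the count was 2088, with 867 higher (41.5% of the calls, beside 52.8% with all libraries) and 1221 lower, and with the number range as a term it was 1970. The range above 40 held only females 4 and 5. With the range as a term the sex difference thus rested on the 8 libraries numbered up to 40, so these settings are not separate checks. Leaving out male 1 or female 4 lowered the count of genes higher in females to 1378 and 1435.

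The share of genes called lower in females varied with the level of the gene. Below a mean of 1 CPM 441 of 5195 genes were higher (8.49%) and 129 lower (2.48%), and above 100 CPM 82 of 1068 were higher (7.68%) and 310 lower (29.03%). Protein-coding genes were called higher 1583 times (11.2%) and lower 1737 times (12.3%) of 14131 tested, beside 11.1% and 9.89% of all genes tested. Among 1728 long non-coding RNAs 219 were higher (12.7%) and 85 lower (4.92%). Among 2163 pseudogenes 70 were higher (3.24%) and 118 lower (5.46%). Of 1793 genes of another type or of none, 322 were higher (18.0%) and 19 lower (1.06%). Every autosome carried called genes, with 17.4% to 23.7% of the tested genes of each chromosome called. With upper-quartile scaling the same test gave 2574 higher and 1715 lower genes, and with relative log expression scaling 1939 and 2155, so the split between the directions moved with the scaling. For 48 genes all 5 females and none of the males had more than 10 counts, and for 32 genes the reverse held. These genes passed the filter through 1 sex alone, so their counts were apart by the rule, and all of them were called. Atp13a4, Myh1, Myh2, Slc17a2 and Mpped1, named below, are among them, so their calls are no independent evidence of a difference.

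**Figure D1:**
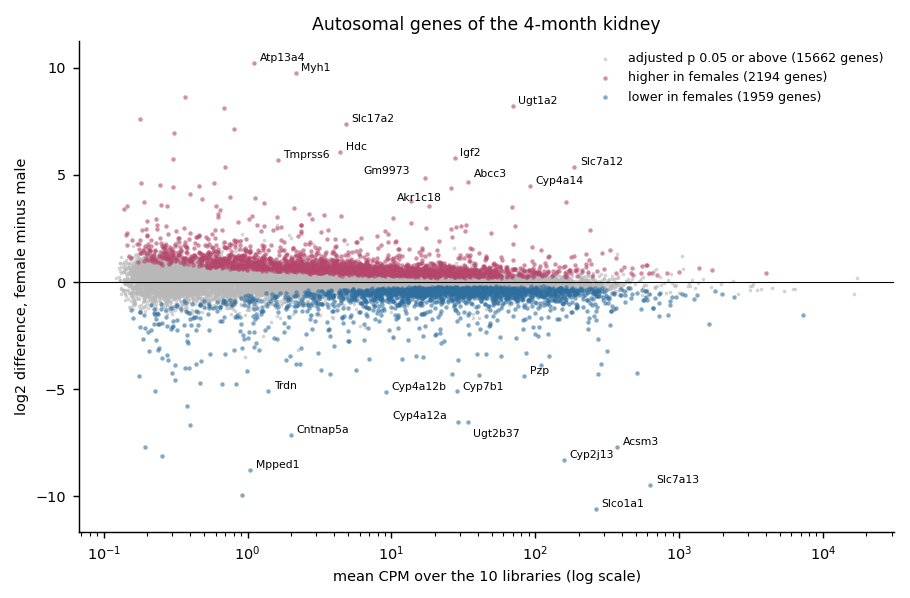
Each point is 1 of the 19815 autosomal genes tested, with the mean CPM of the 10 libraries on a log axis and the log2 difference of females minus males on the other axis. Red points are the 2194 genes higher and blue points the 1959 genes lower in females (adjusted p under 0.05), and the 24 labelled genes are those with the widest differences among genes of at least 1 CPM without overlap. Of the points, 48 red and 68 blue ones lie beyond an 8-fold difference.

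Values given with ± from here on, unless a unit is named, are log2 differences of females minus males with their SE, so a negative value means lower in females. Carriers and enzymes known from the proximal tubule were among the widest differences towards males. Slco1a1 (ENSMUSG00000041698, chromosome 6, 141907282 to 141946962; mm10) encodes an organic anion transporting polypeptide. It reached 557, 528, 526, 615 and 395 CPM in males 1 to 5, and 0.133, 0.0654, 0.272, 0.1396 and 0.988 CPM in females 1 to 5. Every male was far above every female, and the log2 difference was -10.60 ± 0.56 (SE, adjusted p = 1.89e-07), or -11.69 without female 5. Slc7a13 (ENSMUSG00000041052, chromosome 4, 19818725 to 19842218), a carrier of acidic amino acids and cystine in the late proximal tubule, had 1332, 1488, 1317, 1094 and 1068 CPM in males and 1.33, 1.798, 1.86, 2.37 and 1.57 CPM in females. The females stayed below 3 CPM and the sexes were far apart, with a log2 difference of -9.46 ± 0.21 (SE, adjusted p = 5.61e-11).

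Acsm3 (ENSMUSG00000030935, chromosome 7, 119760923 to 119787513), a mitochondrial acyl-CoA synthetase for medium-chain fatty acids, had 702, 722, 647, 915 and 710.5 CPM in males and 3.26, 2.66, 4.38, 2.21 and 5.56 CPM in females. Male 4 was the highest, and the log2 difference was -7.67 ± 0.28 (SE, adjusted p = 8.73e-09). The cytochrome P450 genes Cyp2j13, Cyp4a12a, Cyp4a12b and Cyp7b1 belonged to the same group, with log2 differences of -8.29 ± 0.22, -6.54 ± 0.21, -5.14 ± 0.31 and -5.10 ± 0.29. Cyp7b1 hydroxylates oxysterols and steroids, and the Cyp4a12 enzymes turn arachidonic acid into 20-HETE, an agent that constricts vessels. Ugt2b37, a glucuronosyltransferase, spanned 61.1 to 76.6 CPM among males, while females reached 1.14 CPM at most.

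Outside metabolism, Cntnap5a, of the contactin-associated family, was lower in females at -7.15 ± 0.38, as was Trdn, which encodes triadin of the muscle calcium release complex, at -5.08 ± 0.44. Mpped1 held 676 counts in all males together and 1 count in all females, a ratio of 721 with a 95% counting interval of 129 to 28538 (exact, counting error only). Pzp, an alpha-macroglobulin that binds proteases, had 171, 167, 156, 151 and 156 CPM in males and 1.95, 1.05, 0.394, 0.363 and 34.7 CPM in females. The first 4 females stood below 2 CPM and female 5 stood apart from them, still below every male. With all libraries the log2 difference of Pzp was -4.37 ± 1.12 (SE, adjusted p = 0.0181), and without female 5 it was -7.45 (adjusted p = 2.22e-06). Female 5 also held the most RNA of the hepatocyte markers Alb, Apoa1, Apoa2, Ahsg, Fga, Fgb and Fgg, whose sum ranged over 22.04 to 279 CPM in females and 17.6 to 62.9 CPM in males; 0 of the 7 were called by edgeR and 1 by DESeq2, and the part of liver RNA in the Pzp value was not tested.

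The widest differences towards females were spread over carriers, enzymes and secreted factors. Ugt1a2 (ENSMUSG00000090171, chromosome 1, 88200601 to 88218997), a glucuronosyltransferase, had 177, 184, 143, 82.99 and 110.1 CPM in females and 0.592, 0.254, 0.513, 0.426 and 0.5504 CPM in males. The males stayed below 1 CPM, and the log2 difference was 8.22 ± 0.30 (SE, adjusted p = 8.98e-09). Slc7a12 (ENSMUSG00000039710, chromosome 3, 14480697 to 14505830), an amino acid carrier of the straight proximal tubule in the family of Slc7a13, had 268, 470.3, 283, 455 and 346 CPM in females and 7.39, 11.6, 15.6, 3.103 and 6.87 CPM in males, with a log2 difference of 5.35 ± 0.40 (SE, adjusted p = 3.73e-06). These carriers of 1 family were thus separated in opposite directions, from chromosomes 3 and 4.

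Slc17a2, a sodium-coupled phosphate and anion carrier gene, had 8.58, 13.6, 6.87, 9.004 and 10.004 CPM in females and at most 0.0897 CPM in males (log2 difference 7.37 ± 0.38). Cyp4a14, another P450 of the fatty acid omega-hydroxylase family, had 179, 222, 258, 109 and 116 CPM in females and 3.54, 3.21, 6.43, 3.303 and 22.8 CPM in males, where male 5 stood above the other 4 (log2 difference 4.49 ± 0.60, or 5.42 without male 5). Abcc3, which exports glucuronides and bile acids, differed by 4.67 ± 0.48. Akr1c18, which inactivates progesterone, differed by 4.36 ± 0.37, and female 2 was the highest for both genes.

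Secreted and signalling genes were also in this group. Igf2 (ENSMUSG00000048583, chromosome 7, 142650766 to 142666816), the insulin-like growth factor gene that is imprinted and mainly fetal, had 67.6, 45.2, 57.8, 48.1 and 51.1 CPM in females and 0.826, 1.59, 0.812, 0.986 and 0.613 CPM in males, with a log2 difference of 5.81 ± 0.23 (SE, adjusted p = 2.14e-08). Hdc, which makes histamine, had 5.76 to 12.2 CPM in females and 0.0932 to 0.171 CPM in males (log2 difference 6.08 ± 0.26). Tmprss6, the protease that restrains hepcidin, differed by 5.70 ± 0.63, or by 6.98 without male 5, which stood above the other males at 0.204 CPM, and the unnamed locus Gm9973 at 4.85 ± 0.25. Atp13a4, a P5-type transport ATPase, held 764 counts over the females and 0 in every male. Against a floor of 3 counts over the male group the ratio was 239, with an exact 95% lower limit of 194 (counting error only). Myh1, a myosin heavy chain of fast skeletal muscle, held 1458 counts in females and 1 in males, a ratio of 1366 with a 95% interval of 245 to 53994 (exact, counting error only).

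**Figure D2:**
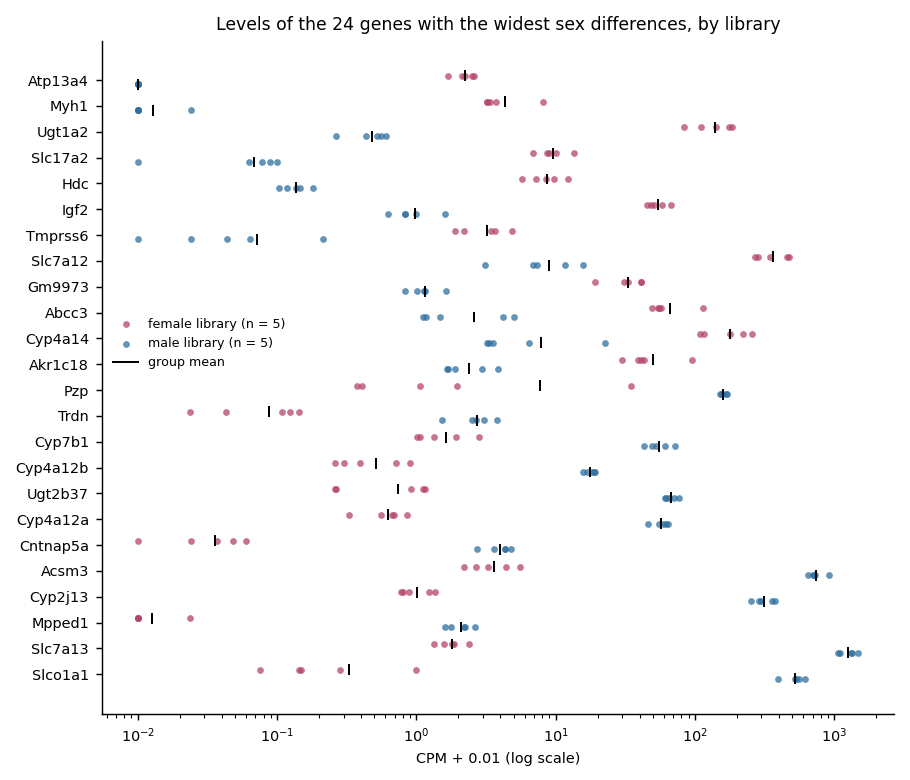
Points are CPM values of single libraries, plotted as CPM plus 0.01 on a log axis, for the 12 genes with the widest difference in each direction, and black bars are group means. The 5 female (red) and 5 male (blue) points do not overlap for any of the 24 genes, which was a condition of their selection. Female 5 at 34.7 CPM is the outlying point of Pzp.

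The sequence before the start of these 24 genes was searched for letters that the known routes of sex-dependent expression use. RefSeq promoters of the GRCm38.p6 build, the build of the count tables, were matched by symbol to 13 of the 24 genes, which gave 19 start sites, and the 250 bases before each start were searched on both strands. The 4 promoters below are shown because Slco1a1 and Ugt1a2 had very wide differences in either direction and Slc17a2 and Hdc held matches, with matched letters in capitals and all sequences written 5′ to 3′ on the strand of the gene.
Slco1a1, chr6:141946963-141947212, minus strand: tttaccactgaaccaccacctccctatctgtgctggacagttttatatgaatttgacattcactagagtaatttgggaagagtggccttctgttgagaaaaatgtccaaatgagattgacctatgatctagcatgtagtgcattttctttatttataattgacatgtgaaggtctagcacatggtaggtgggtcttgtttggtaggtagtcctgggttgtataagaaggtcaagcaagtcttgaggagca
Hdc, chr2:126618679-126618928, minus strand: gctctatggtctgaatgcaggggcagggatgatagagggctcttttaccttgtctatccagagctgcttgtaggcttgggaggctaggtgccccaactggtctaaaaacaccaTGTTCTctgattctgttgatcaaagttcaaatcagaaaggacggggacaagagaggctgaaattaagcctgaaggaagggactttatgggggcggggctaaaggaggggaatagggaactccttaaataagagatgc
Ugt1a2, chr1:88200361-88200610, plus strand: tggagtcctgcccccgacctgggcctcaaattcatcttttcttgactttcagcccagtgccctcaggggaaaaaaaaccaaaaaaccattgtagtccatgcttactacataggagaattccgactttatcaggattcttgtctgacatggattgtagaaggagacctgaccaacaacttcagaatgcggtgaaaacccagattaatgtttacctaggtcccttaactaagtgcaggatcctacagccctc
Slc17a2, chr13:23806743-23806992, plus strand: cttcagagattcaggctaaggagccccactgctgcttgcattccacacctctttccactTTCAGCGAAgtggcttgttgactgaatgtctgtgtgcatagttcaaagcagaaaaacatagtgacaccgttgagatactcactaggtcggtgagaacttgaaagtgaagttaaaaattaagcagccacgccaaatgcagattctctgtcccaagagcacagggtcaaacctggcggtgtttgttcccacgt

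The steroid receptor half-site TGTTCT was present in 2 of 11 promoters of genes higher in females and 1 of 8 of genes higher in males, beside 16.1% of the 32851 promoters in the table. In the Hdc promoter it lay 137 to 132 bases before the start, and in a promoter of Igf2 85 to 80 bases before it. In the promoter of Pzp it lay 126 to 121 bases before the start. The 11 and 8 promoters are start sites, and a gene can have several that lie close together. The STAT5 site TTCNNNGAA was present in 1 of the 11 female promoters, 191 to 183 bases before the start of Slc17a2, and in 0 of the 8 male ones, beside 7.02% of all promoters. The HNF4A-specific motif CAAAGTCCA was present in 0 of either group, beside 0.384%. TGTTCT holds the letters TTC that begin the STAT5 site, so matches of these motifs can overlap, but in the promoters searched none did. These are matches of letters in a short window and not sites of binding.

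The counts of the lists and markers below stand beside 11.1% higher and 9.89% lower in females among all 19815 genes tested. Those given without females 4 and 5 stand beside 867 higher and 1221 lower of these genes. The carriers that take up organic anions and cations, which clear drugs and waste from the blood, were called lower in females more often than higher. Of 33 measured genes of the Slc22, Slco and Slc47 families, 12 were lower and 5 higher in females, and the median log2 difference over the list was -0.011. The urate carrier Slc22a12 was lower in females at -1.21 ± 0.15, and Slc22a6, the organic anion transporter OAT1, at -1.70 ± 0.20. Slc22a30 had 14.1 ± 3.48 CPM (SD, n = 5) in females and 204 ± 20.9 in males, whereas its relative Slc22a29 had 33.8 ± 8.85 CPM in females and 2.91 ± 0.685 in males. Slc22a8, the transporter OAT3, did not pass, at 0.22 ± 0.16 (adjusted p = 0.354). In the 8 libraries numbered up to 40 the counts were 12 lower and 4 higher.

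Carriers of amino acids were divided, with 8 of 40 higher (20%) and 5 lower (12.5%) in females and a list median of 0.15. Besides Slc7a12 and Slc7a13, the serotonin carrier gene Slc6a4 was higher in females, at 4.01 CPM in females and 1.94 in males (1.05 ± 0.13), and the glycine carrier gene Slc6a9 was lower (-1.001 ± 0.17). The main luminal neutral amino acid carrier Slc6a19 and the cystine carrier subunits Slc3a1 and Slc7a9 did not pass, with log2 differences of -0.093 ± 0.18, -0.10 ± 0.10 and 0.28 ± 0.14. The exporters of the ABC family were called higher more often than lower, with 12 of 38 higher and 5 lower in females and a list median of 0.21. Both P-glycoprotein genes were higher in females, Abcb1a at 14.1 CPM in females and 6.54 in males (1.11 ± 0.12) and Abcb1b at 24.6 CPM in females and 8.12 in males (1.60 ± 0.19). Abcc4, a luminal exporter of organic anions, was higher at 1.04 ± 0.28, and its call was lost without male 1, without male 3, without female 5 and without females 4 and 5 together. Abcc2 and Abcg2, which export conjugates and urate, were lower in females (-0.65 ± 0.15 and -0.62 ± 0.15), and the calls of Abcc4 and Abcc2 were lost with the number range as a term. With females 4 and 5 left out, 7 ABC genes were higher and 3 lower.

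Of 55 measured cytochrome P450 genes, 13 were lower (23.6%) and 7 higher (12.7%) in females, with a list median of 0.16. Among all genes tested 9.89% were lower and 11.1% higher. Cyp2e1, which oxidises ethanol and small toxicants, had 560.1, 432, 599, 554 and 453 CPM in males and 26.3, 19.03, 33.3, 18.3 and 34.1 CPM in females. Every male lay above 400 CPM and every female below 40 CPM, and the log2 difference was -4.31 ± 0.21 (SE, adjusted p = 1.01e-07). Cyp4b1 was lower in females at -4.25 ± 0.23. Cyp4f14, Cyp46a1 and Cyp2d26 were higher in females beside Cyp4a14, at 1.95 ± 0.18, 1.62 ± 0.31 and 1.13 ± 0.17. Cyp27b1 and Cyp24a1, which make and break down active vitamin D, did not pass (-0.32 ± 0.57 and -1.26 ± 0.46). 

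Conjugating enzymes, which attach glucuronic acid, sulfate or glutathione to drugs and steroids, were divided, with 10 of 43 higher and 9 lower in females and a list median of -0.062. The widest Ugt1a differences were on the female side, with Ugt1a9, Ugt1a10 and Ugt1a1 higher at 3.53 ± 0.66, 3.03 ± 0.43 and 2.66 ± 0.35 beside Ugt1a2. Those of Ugt2b were on the male side, with Ugt2b38 and Ugt2b5 lower in females at -3.84 ± 0.24 and -3.62 ± 0.20. Neither family went 1 way, as Ugt1a7c and Ugt1a6b were lower (-1.44 ± 0.22 and -0.71 ± 0.19) and Ugt2b34 was higher in females (1.28 ± 0.19). The call of Ugt1a6b was lost without females 4 and 5 together and with the number range as a term. It was also lost without any 1 of male 3, male 5, female 4 and female 5. The alpha-class glutathione transferase genes Gsta2 and Gsta1 were higher in females (1.36 ± 0.25 and 1.21 ± 0.32), and the call of Gsta1 was lost without male 2. Ugt1a genes share their last exons, and Gsta1, Gsta2 and the Ugt2b genes have close copies. Reads could be split between them in the counting, so their values are uncertain.

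Enzymes that make and inactivate steroids were more often lower in females, 12 of 28 against 5 higher, with a list median of -0.33. Srd5a1 and, named after its value was seen, Srd5a2, which turn testosterone into dihydrotestosterone, were lower in females (-1.64 ± 0.20 and -1.12 ± 0.21), as were Hsd17b2 and Hsd17b11, which inactivate androgens and oestrogens (-1.84 ± 0.16 and -2.17 ± 0.16). Hsd11b1, which regenerates active glucocorticoid and is also named after its value was seen, was lower at -1.41 ± 0.14, at 28.6 CPM in females and 75.8 in males. Hsd11b2, which shields the mineralocorticoid receptor in the distal nephron, did not pass (0.28 ± 0.14, adjusted p = 0.171). Hsd17b14 and Akr1c20 were higher in females, at 2.78 ± 0.30 and 1.64 ± 0.34.

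Among 24 receptors and mediators of hormones, 9 were higher and 2 lower in females, with a list median of 0.16. Prlr (ENSMUSG00000005268, chromosome 15, 10177238 to 10349180), the prolactin receptor gene, had 328, 297, 313, 308 and 282 CPM in females and 22.6, 23.5, 34.05, 10.4 and 22.99 CPM in males. Every female was far above every male, and the log2 difference was 3.75 ± 0.25 (SE, adjusted p = 1.22e-06). Socs2 and Cish, targets of STAT5 that damp its signal, were higher in females at 1.56 ± 0.39 and 1.07 ± 0.26, but in both genes the highest male, at 11.9 and 11.5 CPM, lay above the lowest female. The call of Cish was lost without females 4 and 5, and both calls with the number range as a term. Bcl6, a repressor that competes with STAT5 in liver, was lower in females, with 8.92, 7.86, 5.76, 13.99 and 8.33 CPM in females and 39.8, 12.1, 31.1, 37.7 and 25.7 CPM in males, where male 2 overlapped the females (-1.70 ± 0.30). Igfbp1, a binding protein of insulin-like growth factors, was higher (1.86 ± 0.23), and Esr1, the oestrogen receptor alpha gene, lower in females (-0.64 ± 0.14). Stat5a, Stat5b and the growth hormone receptor gene Ghr did not pass, with 0.18 ± 0.12, 0.14 ± 0.099 and -0.12 ± 0.086. In the libraries numbered up to 40, 5 genes of this list were higher and 2 lower.

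Of 26 transcription factors of the nephron, 2 were higher and 2 lower in females (list median -0.0027), or 7.69% in each direction, below the 11.1% and 9.89% of all genes tested. Nr1i2, the xenobiotic receptor PXR, had 5.78 ± 1.04 CPM in females and 2.45 ± 0.358 CPM in males (1.24 ± 0.16), and Nr1h4, the bile acid receptor FXR, 34.98 ± 7.18 and 81.2 ± 6.39 CPM (-1.21 ± 0.13). Hnf4g was lower (-0.75 ± 0.15) and Wt1, a podocyte factor, higher in females (0.39 ± 0.11), a call lost without male 4, male 5, female 2 or female 5. Hnf4a, which holds the identity of the proximal tubule, did not pass (-0.38 ± 0.14).

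Of 34 genes of fatty acid oxidation, 13 were lower and 2 higher in females, with a list median of -0.22. Cd36, the fatty acid uptake receptor, had 364, 410.4, 366, 343 and 344 CPM in males and 90.9, 117, 93.3, 106 and 97.4 CPM in females, without overlap (log2 difference -1.86 ± 0.095, adjusted p = 1.66e-07). Crot of peroxisomal oxidation was lower in females at -1.20 ± 0.13, and Acot12, an acetyl-CoA hydrolase, at -1.10 ± 0.093. Against this direction, Hao2, a peroxisomal hydroxy acid oxidase, was higher in females at 1.503 ± 0.14. The rate-limiting carnitine transferase Cpt1a did not pass (-0.31 ± 0.12). Leaving out females 4 and 5 gave 10 lower and 4 higher genes.

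Of 28 genes of glutathione, antioxidant defence and iron, 14 were lower and 1 higher in females, with a list median of -0.37. Ggt1, which breaks down luminal glutathione, was lower at -0.97 ± 0.11, and the peroxidase gene Gpx1 at -0.78 ± 0.15. Hmox1 and Nqo1, which respond to oxidants, were lower at -0.97 ± 0.26 and -0.91 ± 0.19, and the call of Hmox1 was lost without male 1 or female 5 and both calls without females 4 and 5. The exception was the iron exporter Slc40a1, higher at 0.47 ± 0.13, a call lost without male 1, 2, 3 or 4 or female 5 and with the number range as a term. Without females 4 and 5, 8 were lower. Of 74 nuclear genes of oxidative phosphorylation, 11 were lower (14.9%, beside 9.89% of all genes tested) and 0 higher in females (list median -0.24), among them Ndufc2, Uqcrq and Ndufv1 at -0.69 ± 0.18, -0.57 ± 0.14 and -0.51 ± 0.097, where the call of Ndufc2 was lost without male 1 or male 3 and without females 4 and 5. Without females 4 and 5 only 2 of these were called, with a list median of -0.17.

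Of 43 genes of sodium, chloride, potassium and phosphate transport, 13 were higher and 6 lower in females, with a list median of 0.17. Higher in females were Slc12a1, the target of loop diuretics, at 0.65 ± 0.17, Slc12a3, the target of thiazides, at 0.67 ± 0.20, and Klhl3, which controls the latter, at 0.60 ± 0.13. The call of Slc12a1 was lost without male 1 or male 3, and that of Slc12a3 without male 1, 2 or 4 or female 2 or 5. Scnn1g, a subunit gene of the epithelial sodium channel and a marker of principal cells, was higher at 0.39 ± 0.093. It was the only one called of 5 principal cell markers tested, whose median was -0.39. Their sum ranged over 108 to 167 CPM in females and 112 to 219 CPM in males, with overlap. Lower were the phosphate carrier Slc34a1 of the proximal tubule (-0.71 ± 0.18), its scaffold Slc9a3r1 (-0.53 ± 0.13) and the sulfate carrier Slc26a1 (-0.69 ± 0.13). With the number range as a term the calls of Slc12a1, Slc34a1 and Slc9a3r1 were lost. The sodium-proton exchanger gene Slc9a3 did not pass (0.026 ± 0.11). With females 4 and 5 left out, 14 were higher and 5 lower. No aquaporin gene passed with edgeR, 0 of 8, and DESeq2 also called 0; among them Aqp1 and Aqp2 had -0.13 ± 0.12 and -0.48 ± 0.53, and of the 8 only Aqp3 had an unadjusted p under 0.05.

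Of 10 genes of the renin-angiotensin system, 2 were higher (20%) and 1 lower (10%) in females. Agt, the angiotensinogen gene, had 16.5 ± 2.57 CPM in females and 9.58 ± 2.04 CPM in males (0.79 ± 0.15). Mme, neprilysin, which degrades natriuretic and angiotensin peptides, was higher at 0.83 ± 0.10, and the angiotensin (1-7) receptor gene Mas1 lower at -3.34 ± 0.39 at levels near 1 CPM or below. Renin (Ren1) did not pass (0.73 ± 0.41), nor did Ace (0.028 ± 0.12). In polyamine metabolism 4 of 14 genes were lower and 2 higher in females. Odc1, ornithine decarboxylase, the first step of polyamine synthesis, had 578, 469.8, 478, 539 and 564 CPM in males and 178, 154, 134, 79.7 and 105 CPM in females. All males lay above 400 CPM and all females below 200 CPM (log2 difference -2.01 ± 0.19, adjusted p = 2.51e-05). Arg2 and Oat, which make and use ornithine by other routes, were higher in females at 2.99 ± 0.19 and 1.17 ± 0.11. In ammonia and glucose production 3 of 16 genes were lower and 1 higher, with Pcx at -0.89 ± 0.13 and the glutamine synthetase gene Glul at 0.70 ± 0.16, and Pck1 did not pass (0.14 ± 0.25). In the libraries numbered up to 40, the genes called higher and lower in females were 7 and 13 for cytochrome P450, 5 and 4 for amino acid carriers, 9 and 9 for conjugating enzymes, 6 and 11 for steroid enzymes and 2 and 2 for transcription factors. They were 2 and 1 for the renin-angiotensin system, 3 and 2 for polyamine metabolism and 1 and 1 for ammonia and glucose production.

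A list of 10 genes known to respond to androgen in mouse kidney was lower in females in all its 10 members, 9 of them by at least 2-fold, with a median log2 difference of -4.07. The list was chosen with earlier results of these data known, and 6 of its members are also named above, so it is no independent evidence of direction. Kap (ENSMUSG00000032758, chromosome 6, 133849851 to 133853762), the kidney androgen-regulated protein gene, had 10868, 9936, 11549.6, 11023 and 10421 CPM in males and 2661, 4572, 4391, 4335 and 2577 CPM in females. The groups did not overlap, and the log2 difference was -1.54 ± 0.19 (SE, adjusted p = 0.000181). Adh1, Timd2 and Gusb are named after their values were seen. Adh1 and Timd2 were lower in females at -2.49 ± 0.12 and -4.28 ± 0.19, and Gusb, beta-glucuronidase, at -0.89 ± 0.11. Without females 4 and 5 all 10 were still called.

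**Figure D3:**
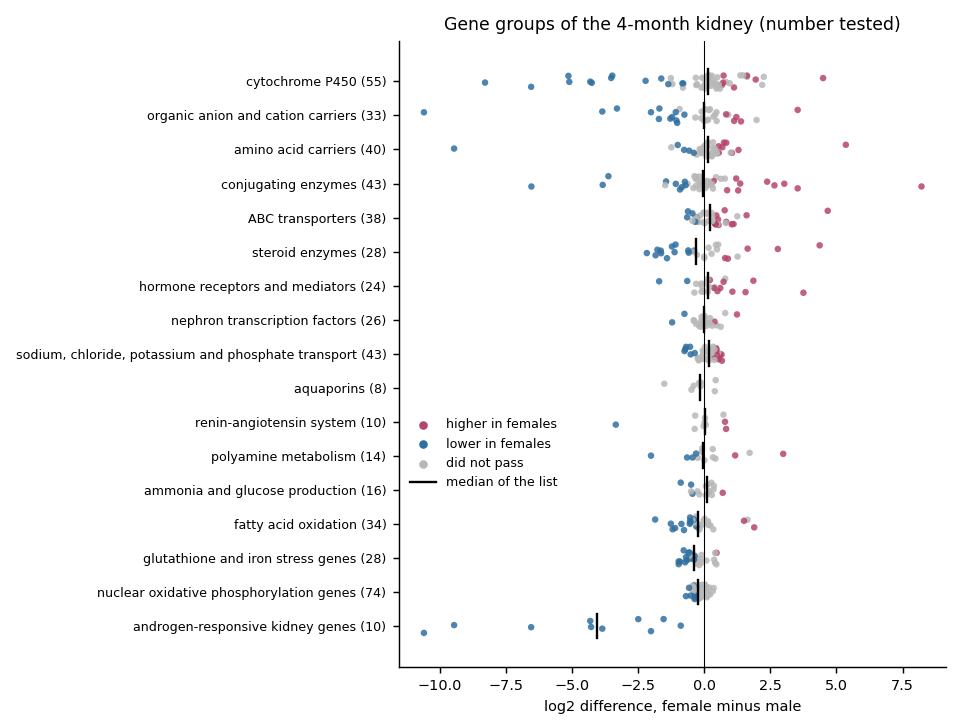
Each point is the log2 difference (females minus males) of 1 gene, by gene group with the number tested in brackets. Red and blue points passed an adjusted p of 0.05 as higher and lower in females, grey points did not, and black bars are list medians. Medians lie between -0.37 and 0.21 in 16 lists, and at -4.07 in the androgen-responsive list.

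Called genes with the same symbol up to the last number and within 500 kb of each other formed 213 pairs, of which 73 were both higher, 79 both lower and 61 of opposite direction (28.6%). More pairs thus shared a direction than differed in it, where 52.8% of all called genes were higher in females and the others lower. The share of opposite pairs among called genes matched without regard to family was not computed. The opposite pairs were made of 67 genes and 20 symbol families, and a gene could enter several pairs. In 27 of the pairs both genes differed by at least 2-fold. On chromosome 4 the Cyp4a genes held Cyp4a14 and Cyp4a10 on the female side (4.49 ± 0.60 and 0.71 ± 0.19) and Cyp4a12a and Cyp4a12b on the male side, with 47.2 kb between Cyp4a14 and Cyp4a12b. On chromosome 13 the phosphate carrier Slc17a2 was higher in females 14.3 kb from Slc17a3, which was lower (-1.19 ± 0.16), beside Slc17a1 (-1.18 ± 0.13) and Slc17a4 (-0.69 ± 0.20), whose call, like that of Cyp4a10, was lost without any 1 of males 1, 2 and 4. The call of Slc17a4 was also lost without male 3 or female 1, with no filter and with all 20 libraries fitted together. On chromosome 19 Slc22a29 and Slc22a28 lay 28.2 kb apart and differed by 3.53 ± 0.21 and -3.30 ± 0.22.

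The aldo-keto reductase genes on chromosome 13 were split 3 to 3, with Akr1c18, Akr1c20 and Akr1c19 higher and Akr1c14, Akr1c21 and Akr1c13 lower in females (-1.63 ± 0.23, -1.22 ± 0.17 and -0.59 ± 0.17 for the latter group). The call of Akr1c13 was lost without females 4 and 5 and without any 1 of males 1, 2 and 4 and females 2 and 4, and with the number range as a term it and that of Akr1c20 were lost. On chromosome 7 Acsm1 was higher in females, at 148 ± 16.8 against 87.8 ± 5.16 CPM (SD, n = 5), and lay 6.34 kb from Acsm2, which was lower, at 662 ± 193 against 2549.9 ± 218 CPM. On chromosome 3 the steroid dehydrogenase gene Hsd3b4 was higher (0.79 ± 0.16) and Hsd3b2 and Hsd3b3 were lower (-1.77 ± 0.17 and -1.08 ± 0.083). The antitrypsin genes on chromosome 12 had 5 members lower in females, Serpina1a to Serpina1e, at -1.93 to -2.54, whereas Serpina1f and Serpina10 were higher (0.87 ± 0.14 and 2.56 ± 0.34). Fbp1 and Fbp2, the liver and muscle types of fructose bisphosphatase, lay 6.33 kb apart at -0.50 ± 0.16 and 0.97 ± 0.15, and the call of Fbp1 was lost without any 1 of males 1, 3, 4 and 5 and females 3, 4 and 5 and with the number range as a term. Adamts8 was higher (3.67 ± 0.35) 20.1 kb from Adamts15, which was lower (-0.58 ± 0.14), a call lost with the number range as a term.

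Some of these symbol families are not gene families in the usual sense: Taco1os is transcribed against Taco1, and Zfp41 and Zfp623 share only the name of zinc finger genes. The calls of Taco1os, Zfp41 and Zfp623 were lost without females 4 and 5, and these and that of Taco1 with the number range as a term. With 1 library left out, the call of Zfp41 remained only without female 1, and that of Taco1os only without male 5 or female 3. The call of Zfp623 was lost without any 1 of males 1, 3, 4 and 5 and females 4 and 5, and that of Zfp41 also with relative log expression scaling. Reads of overlapping genes such as Taco1 and Taco1os, the Ugt1a genes and close copies such as Serpina1a to Serpina1e cannot be told apart with certainty, since the settings of the counting for strand and shared reads are not given in the sources used here. Without females 4 and 5, 43 of the 61 pairs were still opposite, in 12 families, and with the number range as a term 42. With upper-quartile scaling all 61 were, and with relative log expression scaling 60.

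**Figure D4:**
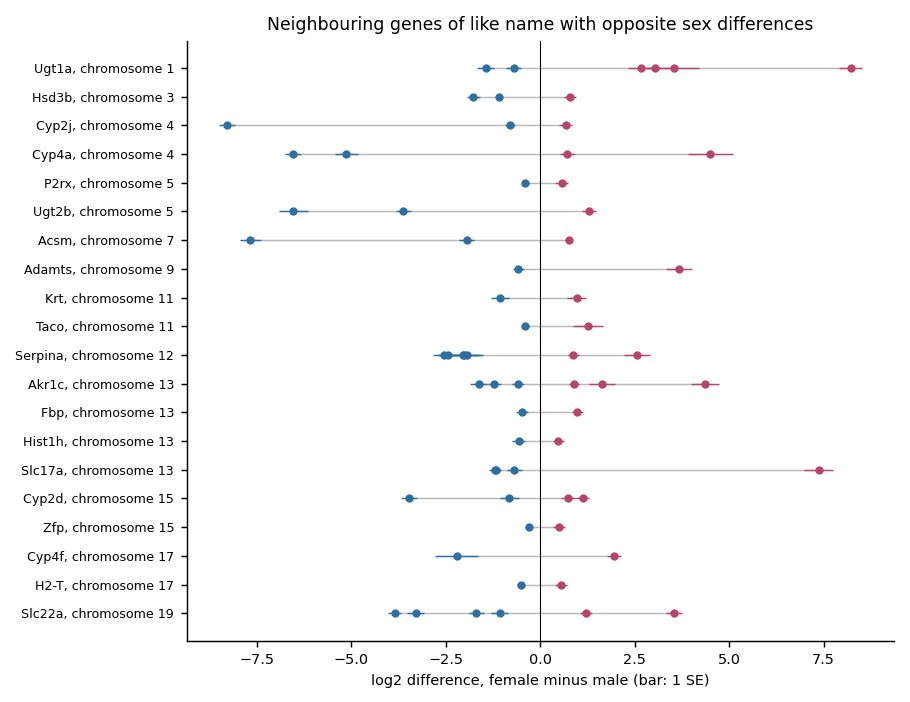
Each line is a symbol family with called genes of opposite direction within 500 kb, with its chromosome. Points are log2 differences of females minus males with bars of 1 SE, red for genes higher and blue for genes lower in females, and the outermost points are Ugt1a2 at 8.22 and Cyp2j13 at -8.29.

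The most abundant genes with at least a 2-fold difference were compared per kb of exon. On the male side these were Kap, Akr1c21, Slc7a13, Cyp4b1, Slc22a12 and Selenop, with mean levels of 15219, 617, 588, 426, 403 and 379 CPM per kb in males. Selenop, the plasma selenium carrier, had 365 ± 41.4 CPM in females and 1078 ± 124 CPM in males. On the female side they were Gsta2, Spp1, Gm10639, Gm3776, Gsta1 and Hao2, with 354, 299.9, 299, 281, 273 and 238 CPM per kb in females. Of these, 4 are glutathione transferase genes or loci like them on chromosome 9 with close copies, and the call of Gm3776 was lost without male 1, 2 or 4 or female 5. Spp1, osteopontin, had 608, 523, 514, 399 and 427 CPM in females and 239, 219, 211, 255 and 219 CPM in males, without overlap (log2 difference 1.11 ± 0.12, adjusted p = 7.24e-05).

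Of 6 markers of the thick ascending limb 5 were higher in females, with Egf at 0.58 ± 0.085 and Umod at 0.45 ± 0.14, and their summed level ranged over 4262 to 6089.8 CPM in females and 3306 to 3766 CPM in males, without overlap. Of 6 podocyte markers 4 were higher (sum 186 to 298 CPM in females and 152 to 201 CPM in males), and of 4 markers of the distal convoluted tubule 2 (sum 659 to 1406 CPM in females and 507 to 878 CPM in males). These lists hold Slc12a1, Wt1 and Slc12a3 themselves, and the part of the other markers in their values was not tested. The podocyte and distal convoluted tubule sums overlapped between the sexes. Trpm6 and Slc12a3 were the called markers of the distal convoluted tubule. With 1 library left out, the call of Trpm6 remained only without male 3 or female 4. It was also lost with relative log expression scaling and with limma-voom. The pan-proximal endocytic receptors Lrp2 and Cubn were higher in females (0.44 ± 0.12 and 0.41 ± 0.13) and Slc34a1 was lower, and the 8 proximal markers had a median of -0.26 and a sum of 8435 to 12328 CPM in females and 9312 to 12094 CPM in males, with overlap. The markers of the S3 segment ranged over 859 to 1069 CPM in females and 2501 to 2902 CPM in males, a sum made mostly of Slc7a13 and Atp11a in males, at 1259.9 and 1254 CPM. Of its 6 genes Slc7a12 and Slc5a1 were higher in females (0.54 ± 0.085 for the latter), and Slc7a13, Cyp7b1 and Atp11a were lower (-1.54 ± 0.094 for the last named).

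None of 6 endothelial, 6 intercalated, 6 T cell, 4 erythroid or 7 adipocyte markers passed with edgeR, where DESeq2 called 1 of the T cell markers and 0 of the others, and Csf1r was the only one of 7 macrophage markers that was higher in females. Of 6 fibroblast markers Pdgfra, Pdgfrb and Col1a2 were higher, and none of these calls remained without females 4 and 5. Of the autosomal markers tested, none of 5 for smooth muscle and renin cells, 5 for urothelium, 2 for adrenal cortex or 2 for neutrophils passed, and Ighm, the immunoglobulin M heavy chain gene, was the only one of 4 for B and plasma cells that did, lower at -0.73 ± 0.19. The adipocyte sum ranged over 177 to 387 CPM in females and 238 to 576 CPM in males and the erythroid sum over 22.5 to 252 CPM in females and 126 to 426 CPM in males. Among 6 markers of injured tubule Vcam1 and Spp1 were higher in females, whereas Havcr1, the kidney injury molecule gene, did not pass (-0.29 ± 0.33, at most 1.41 CPM in females). Beside Myh1 its neighbour Myh2 was higher, with 0.237 to 0.566 CPM in females and 0 counts in every male, but the muscle creatine kinase gene Ckm was at 0 in all 10 libraries and Acta1, the skeletal actin gene, did not pass (-0.61 ± 0.50). Myh2, like Myh1, passed the filter through females alone, so its call is no independent evidence.

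The same genes were read in the separate mice of 25 months, where 1674 of 20364 autosomal genes were called with edgeR, 2886 with DESeq2 and 992, 1024 and 1025 without 25-month male 3, female 4 and male 5, and the shares called again below rest on the count of 1674. Of the 2194 genes higher in females at 4 months, 2170 were tested at 25 months, and 316 of these (14.6%) were called higher again and 1 was called lower, beside 2.86% called higher among all genes tested at both ages. Of the 1959 lower genes 1947 were tested, and 796 (40.9%) were called lower again and 0 higher, beside 5.47%. The difference kept its sign in 1846 genes (85.1%) of the first group and 1836 (94.3%) of the second. Among genes with at least a 2-fold difference at 4 months, 151 of 521 higher and 289 of 402 lower genes were called again. Whether the directions differ in this respect was not tested.

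Of the 24 genes with the widest differences, all but Cyp4a14 were called in the same direction at 25 months. Slco1a1 was at 0.156 ± 0.118 CPM (SD, n = 5) in 25-month females and 116 ± 62.96 CPM in males, which differed by -9.52 (adjusted p = 9.07e-06) on the log2 scale. Slc7a13 was at 1.01 ± 0.4599 and 996 ± 514 CPM, and Kap at 1306 ± 845 and 5442 ± 1078 CPM. Hdc was at 103 ± 66.8 CPM in 25-month females and 0.3199 ± 0.135 in males (log2 difference 8.29, adjusted p = 7.83e-06). Cyp4a14 differed by 1.15 (adjusted p = 0.177), with 142 ± 26.7 CPM in females and 63.96 ± 65.2 in males. Of the 10 androgen-responsive genes 9 were called lower again, of 14 lower genes of the glutathione list 6, of 13 lower genes of fatty acid oxidation 4 and of 11 lower genes of oxidative phosphorylation 0, beside 40.9% of all lower genes tested.

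The difference of the sex effects between the ages was tested for each gene in 1 fit of all 20 libraries. With edgeR 0 of 19815 genes passed, 2307 had an unadjusted p under 0.05, and no adjusted p was below 0.0674. DESeq2 called 142 genes and limma-voom with sample weights 16, and edgeR without 25-month female 5 called 81. Hsd11b1, with the lowest p, differed by -1.41 on the log2 scale in the young mice and by 0.086 in the old, and its male level went from 75.8 to 37.2 CPM (means, n = 5). Acsm3 went from -7.67 to -4.08 (adjusted p of the difference 0.0691), Hao2 from 1.503 to 0.26 (0.097) and Abcb1a from 1.11 to 0.0020 (0.101). For Prlr the values were 3.75 and 1.74 (0.126), with 178 ± 67.02 CPM in 25-month females and 53.4 ± 31.9 in males. None of these passed the threshold.

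**Figure D5:**
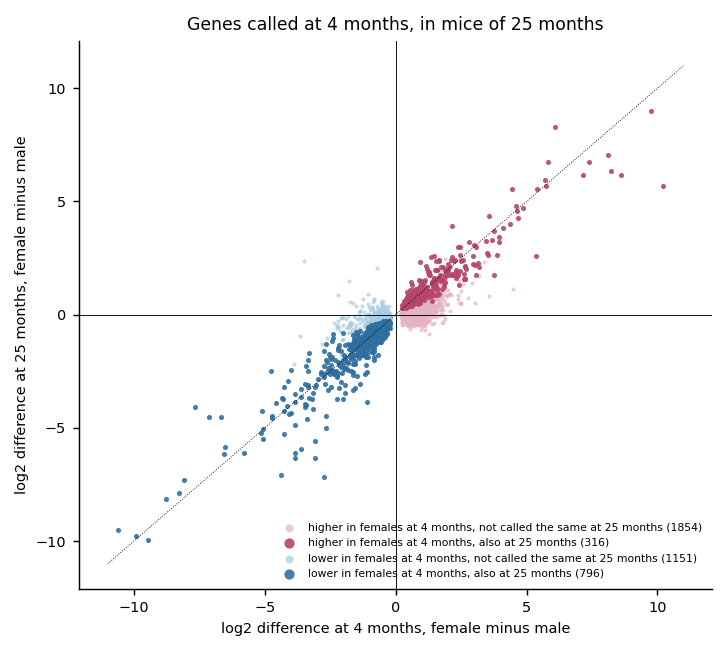
Points are the genes called at 4 months that were also tested at 25 months, with the log2 difference of females minus males at 4 months on the horizontal and at 25 months on the vertical axis, in separate mice. Dark points (316 higher and 796 lower in females) were called in the same direction at both ages, light points were not, and the dotted line marks equal values.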

How the data were processed

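Total RNA of mouse kidney was sequenced as paired ends from stranded libraries, and the authors deposited whole-number read counts per gene, made by trimming, alignment with STAR 2.7.8a to mm10 and counting with featureCounts 2.0.1. The submitters' notes also list FastQC 0.11.8, SAMtools 1.9, MultiQC 1.9 and DESeq2 1.40.2. The settings of the counting for strand and shared reads are not given in the sources used here, and entries for a transgene were left out.

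Samples were grouped by the recorded sex and age and numbered in accession order. The labels do not say that replicates were separate animals, so p-values measure the spread between these samples. The members and lists were chosen with earlier results of these data known. Genes whose count exceeded 10 in 5 or more of the 10 libraries were tested with edgeR 4.0.16 (R 4.3.3; trimmed mean of M values, quasi-likelihood F test, Benjamini-Hochberg adjustment over all 20585 genes that passed, sex-linked and mitochondrial ones included). Log2 differences are females minus males, and standard errors are the log2 difference divided by the square root of F, an approximation. Levels are CPM computed from the counts. A floor of 3 counts and exact 95% intervals cover counting error only. Totals of 58144052 to 80661256 counts set the depth.

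Genes were named as the 12 in each direction with the widest difference among called genes of at least 1 CPM without overlap, up to 4 per list and direction, the 6 most abundant per kb in each direction with at least a 2-fold difference, and opposite pairs within 500 kb. Other scalings, filters, DESeq2 1.42.0, limma 3.58.1 (voom with sample weights), a term for library-number range, a fit of all 20 libraries, and each library left out were tried. The scripts were tested on simulated data. Some members of the lists and a motif are not reported here.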

Additional observations from a re-analysis of the deposited data

Results flagged for a closer look

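Single libraries stood apart from the other 4 of their group (Dixon's ratio above the 95% critical value for 5 samples) in 10 of 70 groups of values, or 14.3%, taken over the genes with the widest differences and the most abundant ones in each sex, where chance gives about 1 in 20. Among females, female 5 had 34.7 CPM of Pzp and 0.988 CPM of Slco1a1, female 2 had 114 CPM of Abcc3 and 94.9 CPM of Akr1c18, female 1 had 8.10 CPM of Myh1, and female 3 had 0.0136 CPM of Mpped1 where the other females had 0. Among males, male 5 had 22.8 CPM of Cyp4a14 and 0.204 CPM of Tmprss6, male 4 had 915 CPM of Acsm3, and male 3 had 0.0143 CPM of Myh1 where the other males had 0. The values of Myh1 in male 3 and of Mpped1 in female 3 are single counts.

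The transgene entry of the tables, which no comparison used, held up to 59 counts in a 4-month library (male 5) and at least 3 in each of the others, and 1062 in 1 of the 25-month libraries. All 4-month mice are recorded as wild type.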

How the results depend on the processing

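No paired analysis was possible because the labels give no replicate numbers. The 4-month count of 4153 genes became 1970 (894 higher, 1076 lower in females) with a term for library-number range, 2088 (867 and 1221) without females 4 and 5, 382 (142 and 240) with the 4 libraries numbered below 20, and 957 with at least a 2-fold difference; the settings without females 4 and 5 and below number 20 hold fewer libraries, and the cause was otherwise not tested. Leaving out 1 library gave 2818 to 4823 genes, 1378 to 2431 higher (1378 without male 1, 1435 without female 4) and 1440 to 2392 lower. At 25 months, 1674 genes became 2886 with DESeq2, 2664 with the number range, 2849 with all 20 libraries in 1 fit, and 992 to 2229 without 1 library (992, 1025 and 1024 without male 3, male 5 and female 4). For the difference between the ages, 0 became 142 with DESeq2, 16 with limma-voom, and 0 to 81 without 1 library (81 without 25-month female 5, 1 without male 4 and 1 without female 3); the cause was not tested. Of 3495 values of the 159 named genes under the alternatives, 3182 kept direction and call, 313 kept direction only and 0 reversed. DESeq2 gave no adjusted p for Pzp and Serpina1b, which are not counted.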
